A study of Mus musculus with 3 samples.

Results

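The Notch pathway was examined in chromatin immunoprecipitation sequencing (ChIP-seq) data through 10 of its genes: the receptors Notch1, Notch2 and Notch3, the ligands Jag1, Jag2 and Dll1, the nuclear effector Rbpj, and the target genes Hes1, Hey1 and Nrarp. They were taken by name out of 21900 protein-coding genes, and every deposited peak that touched a gene's mm10 span, or the 50 kb on either side of it, was counted. This gave 56 of the 18087 peaks of the homeodomain transcription factor DLX3, and 33 of the 16735 peaks of H3K4me3, the trimethylated form of histone H3 lysine 4 that marks active promoters. The cells were keratinocytes of the suprabasal epidermal layers, purified on Percoll, from wild-type BALB/c mice that the series text calls neonatal and the sample labels adult. DLX3, H3K4me3 and nonspecific IgG each had 1 library, so no replicate error could be given, and how many animals contributed is not stated. For IgG no peaks were analysed here.

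Notch receptors are membrane proteins that are cut when a Jagged or Delta ligand on a neighbouring cell binds them. The freed intracellular part enters the nucleus and joins RBPJ, a DNA-binding protein, to switch on targets such as the repressor genes of the HES and HEY families. In the epidermis the pathway is known for its part in the passage of keratinocytes from the basal layer into differentiation, the setting in which DLX3 also acts.

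The H3K4me3 list was first set against markers of the labelled cells. All 10 suprabasal keratinocyte markers (among them Krt1, Krt10, Lor and Ivl) had an H3K4me3 peak within 1 kb of the gene start, and so had all 7 basal markers, such as Krt5 and Krt14, so this mark did not separate the 2 layers. Over all protein-coding genes the share was 60.3%. The mark stood at 3 of 5 fibroblast markers (not at Col3a1 or Lum), a share near that of all genes, with scores of 169.74 to 476.21. It stood at 2 of 5 melanocyte markers, Pmel (2282.68) and Mitf (1083.4), and not at Dct, Tyr or Tyrp1. Of 5 endothelial markers 1 had it (Kdr, at a score of 328.62), and of 5 immune markers 0, Ptprc included. Suprabasal marker scores ran from 76.82 at Ivl to 2180.19 at Lor, and basal ones from 64.62 at Lamb3 to 1451.24 at Itga6. Whether other cells contributed to the peaks at the Notch genes was not tested.

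DLX3 peaks lay in the windows of all 10 Notch genes, and their number ran from 1 at Hey1 to 11 at Notch1. Of all protein-coding genes, 63.8% had at least 1 such peak. H3K4me3 peaks lay in all 10 windows too, where 76.9% of protein-coding genes had one. For DLX3 the median was 5.5 peaks per Notch gene and 1 per protein-coding gene, and for H3K4me3 2.5 and 2. Long spans make wide windows. Per 100 kb of window the DLX3 medians were 3.33 for the Notch genes and 0.89 for all. Neither comparison was limited to genes with H3K4me3 at the start. Notch2 and Hes1 had 8 DLX3 peaks each, Jag1 and Nrarp 7, Jag2 and Rbpj 4, and Notch3 and Dll1 3. As many peaks as at Notch1 were found at 0.918% of protein-coding genes, as many as at Notch2 and Hes1 at 3.62%, and as many as at Notch3 and Dll1 at 30.4%. The 10 genes thus ran from counts that few genes reach to counts that are common.

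**Figure D1:**
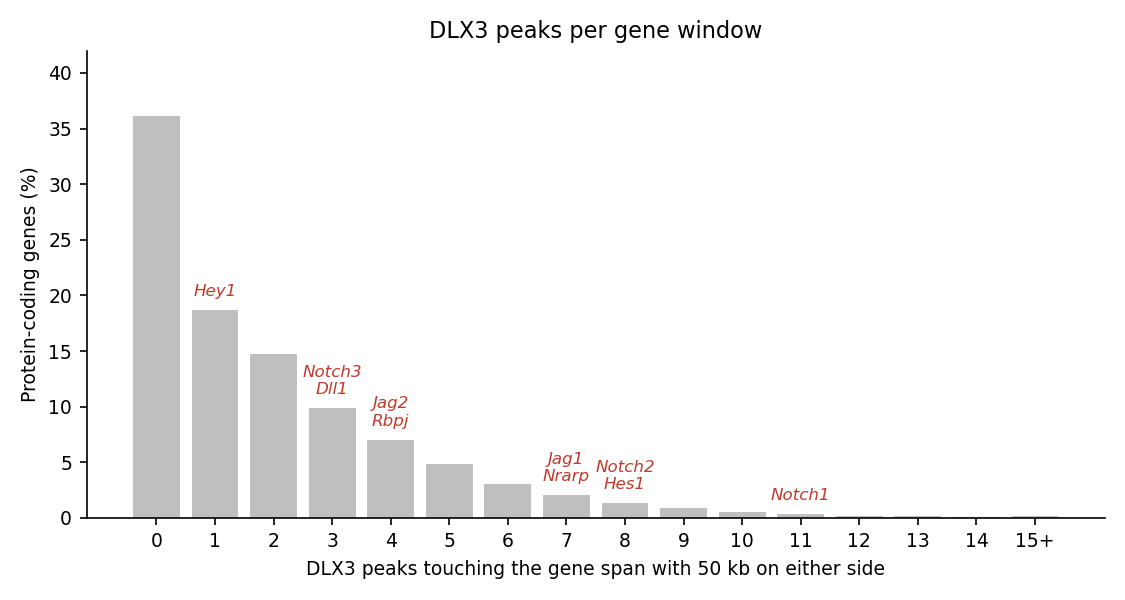
Distribution of the number of DLX3 peaks (horizontal axis) that touch the span of a protein-coding gene with 50 kb on either side, as the percentage of 21900 genes (grey bars, vertical axis). The names in red stand at their own counts, from Hey1 with 1 peak to Notch1 with 11.

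The windows also take in other genes. Of the 56 DLX3 peaks, 39 (69.6%, 95% Wilson interval 56.7 to 80.1, counting error only) had the Notch gene as the nearest protein-coding gene. At Jag2 none of the 4 did, at Notch3 1 of 3 did, and at Notch2, Hes1, Dll1 and Hey1 all did. The peaks nearest to the Notch gene had a median score of 97.2, and the other 17 a median of 77.7. The score is the value deposited for each peak; it looks like the score that MACS writes, in which a smaller p-value gives a higher number, and depends on depth and width, so it was read within a list only. The window edge came closest to a peak at Notch1, where a DLX3 peak of score 50.89 lay 48.54 kb from the span, just inside, and one of 173.8 lay 50.03 kb away, just outside.

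**Figure D2:**
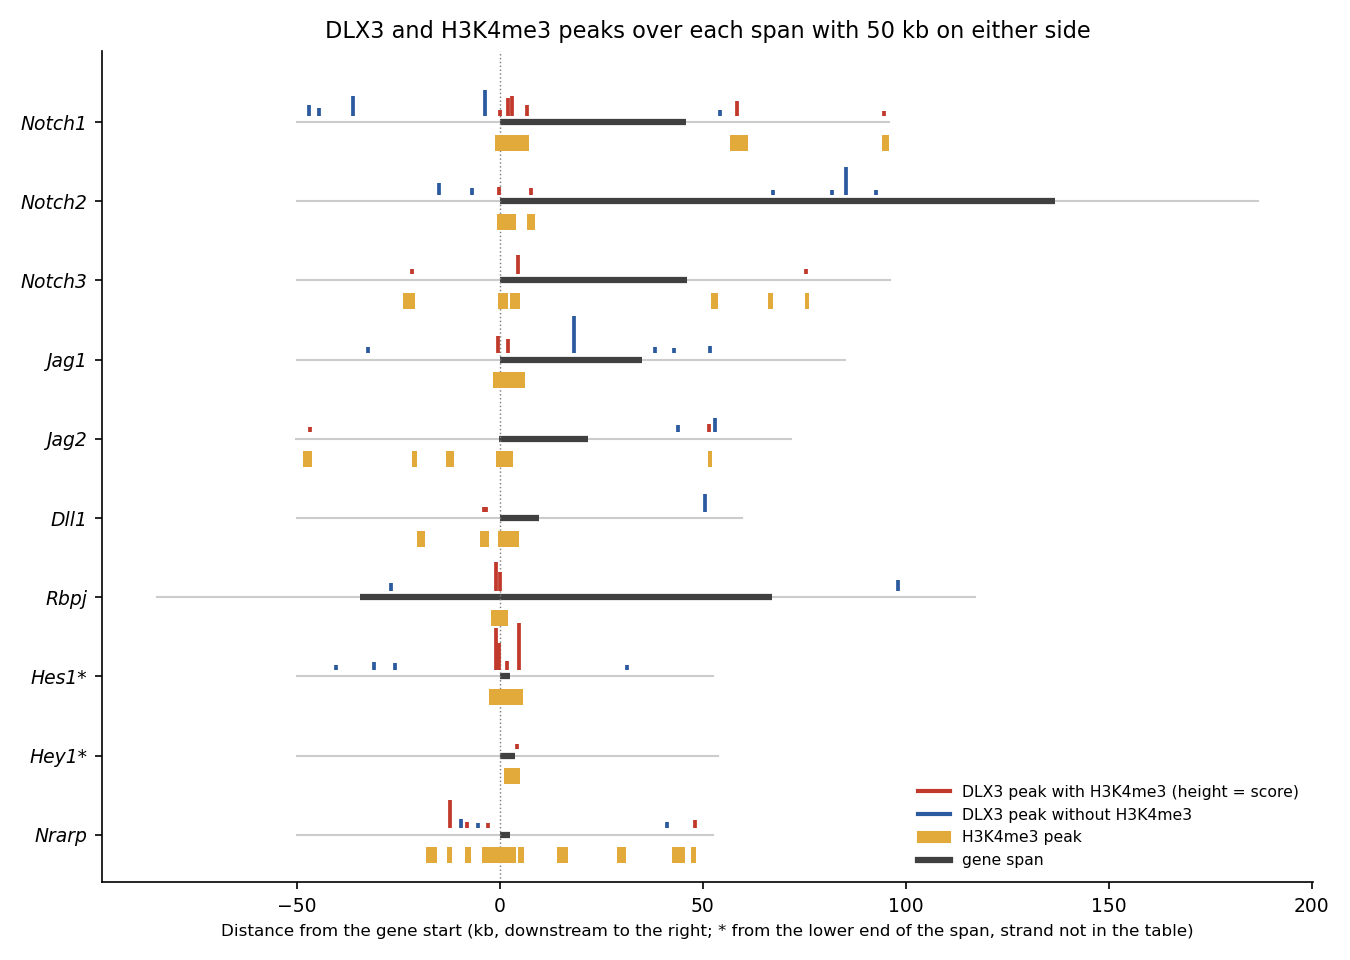
Positions of DLX3 peaks (vertical strokes, height proportional to the score, the tallest 519.87 at Hes1) and H3K4me3 peaks (yellow blocks, to scale) over each gene span (dark bar) and its flanks (thin line), with the distance from the gene start (0) in kb on the horizontal axis. Red strokes overlap H3K4me3 and gather at the starts of Notch1, Jag1 and Rbpj and round both ends of Hes1, and blue strokes, without H3K4me3, lie mostly farther out; at Hes1 and Hey1, whose strand was not known, distance runs from the lower end of the span, and the 2 adjoining H3K4me3 peaks at Hes1 merge at this scale.

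Both marks were then read at the gene start. H3K4me3 lay within 1 kb of the start of all 10 genes, against the same 60.3% of protein-coding genes. DLX3 lay within 1 kb of the start of 6 of 10, namely Notch1, Notch2, Jag1, Rbpj, Hes1 and Hey1. The share was 27.7% over all protein-coding genes, 27.2% when both marks had to be there, and 45.1% over the genes with H3K4me3 at the start. Notch3, Jag2, Dll1 and Nrarp had H3K4me3 at the start without DLX3. The table of starts used here held 8 of the 10 genes, all but Hes1 and Hey1; for these 2, and for the 4408 protein-coding genes treated alike, both ends of the span counted. Promoters can collect reads in any immunoprecipitation, and the part of this in the counts was not tested, since IgG was not analysed.

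The stretches before the starts that lay wholly under a DLX3 peak are shown first, because there the peak and the promoter coincide: Notch1, Notch2, Jag1 and the upstream one of 2 Rbpj starts. Nrarp is added as the start of a feedback gene with H3K4me3 over it, no DLX3 peak there and its nearest DLX3 peaks farther upstream. Each line gives the 250 bases before the start on the gene's strand, 5′ to 3′, from RefSeq on GRCm38.p6 (the assembly of mm10): chr2:26503823-26504072 (minus strand) for Notch1, chr3:98013288-98013537 (plus) for Notch2, chr2:137116521-137116770 (minus) for Jag1, chr5:53590096-53590345 (plus) for Rbpj and chr2:25180508-25180757 (plus) for Nrarp. Capitals mark TAATT, a core of homeodomain sites, and TGGGAA, the short form of the RBPJ core GTGGGAA, on either strand (AATTA and TTCCCA when read on the other).
Notch1: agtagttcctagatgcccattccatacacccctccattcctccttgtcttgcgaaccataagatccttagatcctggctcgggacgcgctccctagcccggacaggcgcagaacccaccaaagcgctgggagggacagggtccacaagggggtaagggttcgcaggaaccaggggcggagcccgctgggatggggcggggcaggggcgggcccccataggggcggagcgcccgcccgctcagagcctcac
Notch2: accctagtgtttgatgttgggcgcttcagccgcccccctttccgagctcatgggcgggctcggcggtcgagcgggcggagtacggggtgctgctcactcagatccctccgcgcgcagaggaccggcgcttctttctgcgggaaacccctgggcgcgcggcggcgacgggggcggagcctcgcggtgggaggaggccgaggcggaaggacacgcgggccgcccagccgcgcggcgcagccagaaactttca
Jag1: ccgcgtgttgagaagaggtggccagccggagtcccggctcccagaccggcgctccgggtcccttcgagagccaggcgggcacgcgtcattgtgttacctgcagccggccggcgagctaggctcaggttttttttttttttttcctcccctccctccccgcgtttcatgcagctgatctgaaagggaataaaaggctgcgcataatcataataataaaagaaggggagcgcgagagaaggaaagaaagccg
Rbpj: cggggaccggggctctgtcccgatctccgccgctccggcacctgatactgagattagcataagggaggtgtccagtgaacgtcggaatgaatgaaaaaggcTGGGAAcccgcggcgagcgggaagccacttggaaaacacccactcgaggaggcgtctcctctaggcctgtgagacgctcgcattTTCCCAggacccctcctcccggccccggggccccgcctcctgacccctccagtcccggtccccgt
Nrarp: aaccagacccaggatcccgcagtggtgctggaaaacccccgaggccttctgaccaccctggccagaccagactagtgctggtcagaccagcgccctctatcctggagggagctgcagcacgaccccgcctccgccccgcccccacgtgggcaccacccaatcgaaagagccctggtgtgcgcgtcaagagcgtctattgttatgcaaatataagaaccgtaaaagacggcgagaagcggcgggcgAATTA

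A DLX3 peak touched 5 of the 10 windows that the 8 genes have, against 24.4% of 21263 protein-coding promoter windows. The 5 include both windows of Rbpj, which overlap and lie under the same DLX3 peak. All 10 windows lay wholly under H3K4me3, while the 24.4% is over windows with and without it. None of the 5, at Notch1, Notch2, Jag1 and Rbpj, held TAATT. Nrarp had the only match among the 10 windows, in the last 5 bases before its start and outside any DLX3 peak, whereas 22.2% of all windows held these letters. The longer TAATTG (6.28% of all windows) and TAATTA (4.31%) were in none of the 10. Over all protein-coding windows, TAATT stood in 12.6% of those that a DLX3 peak touched, with a median GC content of 62.8%, and in 25.3% of the others, with a median of 52.8%; the part of base composition in this was not tested. The Notch windows ran from 56.0% GC at the upstream Dll1 start to 87.2% at Jag2, with a median of 65.6% where all windows had 55.6%. GTGGGAA was in no Notch gene window and in 5.26% of all. The shorter TGGGAA was in both windows of Rbpj, which overlap, and in 20.9% of all windows; in the upstream window it began 149 and 65 bases before the start. These are letter matches and say nothing of which protein binds there.

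Among the receptors, Notch1, the main Notch receptor gene of keratinocytes (chr2:26457902-26503822, minus strand), carried the most DLX3 peaks with the 50 kb flank. A run of 5 peaks extended over 11.2 kb round its start. One peak of score 65.13 was centred 32 bp inside the start, and peaks of 192.86, 214.17 and 121.37 were centred 2090, 2946 and 6672 bp into the gene, all on 1 H3K4me3 peak of 8450 bp. The highest of the window, at 286.27 (chr2:26507346-26507890), was centred 3796 bp upstream and was free of H3K4me3, as was a peak of 211.28 centred 36232 bp upstream. So at Notch1 the peak on the start itself was the lowest of the run, and the highest was upstream of the H3K4me3 peak. Of the remaining 5 peaks, the ones nearest Sec16a, Inpp5e and Egfl7, 3 lay without H3K4me3.

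Notch2, a second receptor gene (chr3:98013538-98150367, plus strand), had 8 DLX3 peaks, 6 of them without H3K4me3. Its highest peak, at 299.79 (chr3:98098574-98099114), was centred 85306 bp into the span and had no H3K4me3. In the same part of the gene 3 others, all without the mark, lay between 67173 and 92726 bp into the span with scores of 54.48 to 57.52. The peak over the start scored 87.36, close to the list median of 83.3, and one of 70.04 at 7738 bp coincided with a separate H3K4me3 peak of score 120.45. Upstream, 2 peaks without H3K4me3 scored 133.21 and 80.28, at 14951 and 6994 bp.

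Notch3, a further receptor gene (chr17:32120820-32166896, minus strand), had 1 DLX3 peak of its own, at 208.12 (chr17:32161812-32162946), centred 4511 bp inside the gene on an H3K4me3 peak of 2531 bp. The H3K4me3 peak at its start was a separate one of 2473 bp and score 1326.18. The other 2 DLX3 peaks of the window, at 56.8 and 58.65, were nearest to Rrp1b and to Ephx3, an epoxide hydrolase gene. With the 50 kb flank the receptors thus went from 11 to 8 to 3 DLX3 peaks. Of these, 6, 2 and 3 lay on H3K4me3. The order of Notch1 and Notch2 depended on the setting. With flanks of 5 and 20 kb Notch1 had 5 and 7 peaks, and Notch2 6 and 8. Counting only peaks nearest to the gene, Notch1 had 6, Notch2 8 and Notch3 1. Notch1 again had more than Notch2 with a 100 kb flank (16 and 9). The same held at or above the median score (8 and 3) and in the top 20% (5 and 1).

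**Figure D3:**
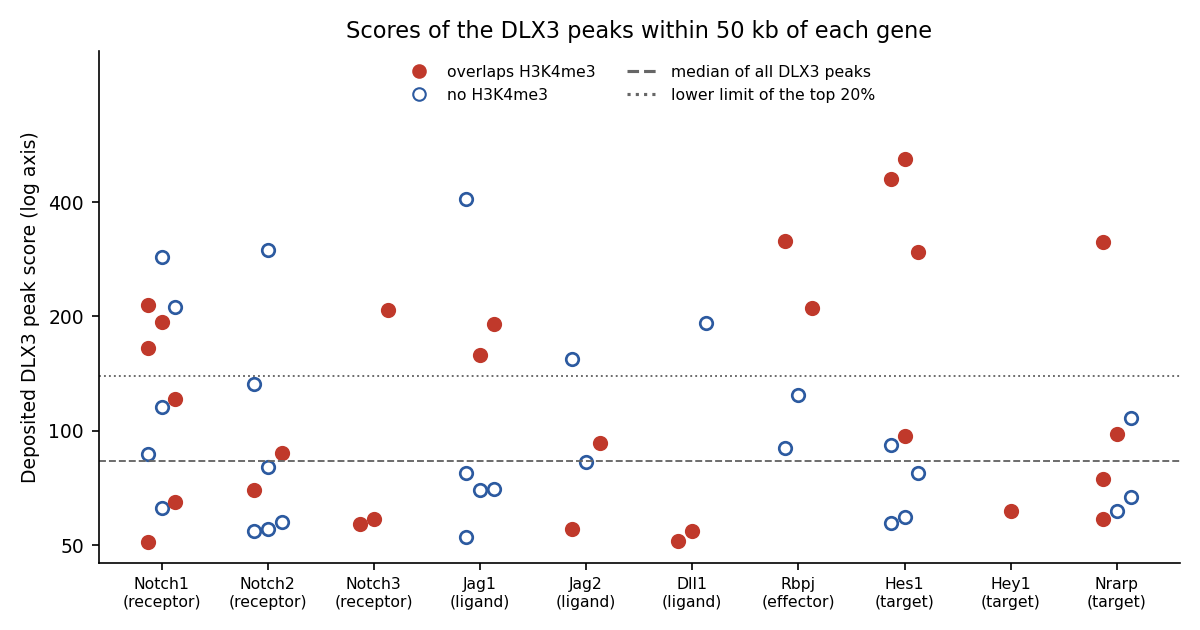
Deposited score (log axis) of each DLX3 peak in the window of each gene (1 point per peak, 56 in all). Filled points overlap H3K4me3, open points do not; the dashed line is the median of all DLX3 peaks and the dotted line the lower limit of their top 20%, which 18 points reach, the highest at Hes1.

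Of the ligand genes, Jag1 had strong DLX3 peaks, and Jag2 and Dll1 had none within 1 kb of a start. Jag1, which encodes Jagged1 (chr2:137081451-137116520, minus strand), had peaks of 191.35 and 158.25 centred 406 bp upstream of the start and 2000 bp inside the gene. Both lay on an H3K4me3 peak of 7970 bp. Its highest peak, at 406.81 (chr2:137097637-137099083), was centred 18160 bp into the gene, was 1447 bp wide and had no H3K4me3. It was the highest of the 28 peaks without H3K4me3 in all 10 windows, with 99.2% of DLX3 peaks at or below its score. Beyond the gene's finish 3 peaks of 52.67 to 77.71 were nearest to Slx4ip, and 1 of 70.53 lay 32613 bp upstream.

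Jag2, which encodes Jagged2 (chr12:112907803-112929812, minus strand), was the gene with the least DLX3 close by. Its 4 peaks lay 43891 bp or more from the start, and 3 of them were nearest to Gpr132, the highest at 154.52. H3K4me3 covered its start with a peak of 4218 bp and score 1073.34. Dll1, which encodes Delta-like 1 (chr17:15367354-15376932, minus strand), had 2 start sites under 1 H3K4me3 peak of 5199 bp and score 2740.46. Upstream of them, DLX3 peaks of 51.3 and 54.68, both near the lower limit of the list, were centred 3447 and 3934 bp from the nearer start on a second H3K4me3 peak, of 339.79. The highest DLX3 peak of its window, at 192.65, was 49403 bp downstream, without H3K4me3.

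Rbpj, the gene of the DNA-binding partner of the Notch intracellular part (chr5:53555779-53657445, plus strand), had 2 DLX3 peaks at its 2 start sites. One, at 210.0 (chr5:53589959-53590739), covered both starts, and one at 316.52 (chr5:53588864-53589695) was centred 1067 bp upstream. The upstream peak was thus the higher of the pair, and both lay on an H3K4me3 peak of 4223 bp that scored 3100. The RefSeq span begins before these starts; a DLX3 peak of 90.41 without H3K4me3 lay in that part, 26877 bp upstream. The last peak, at 124.49, was nearest to Cckar.

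The target genes had 8, 1 and 7 DLX3 peaks. Hes1, the best-known Notch target and a repressor gene (chr16:30065357-30067796), had the highest DLX3 score of the 10 windows. A run of 4 DLX3 peaks extended over 7.08 kb across the gene, which is 2440 bp long. In genome order they scored 461.14 (chr16:30063873-30064685), 296.34 (chr16:30064799-30065426), 97.24 (chr16:30066680-30067275) and 519.87 (chr16:30069323-30070955). The outermost pair were the highest, with 99.5% and 99.7% of all DLX3 peaks at or below them, and the peak inside the gene was the lowest. All 4 lay on H3K4me3, in 1 peak of 5127 bp and an adjoining one of 3304 bp. The other 4 DLX3 peaks, at 25959 bp or more from either end, scored 57.21 to 91.65 and had no H3K4me3. As high a top score was reached in 0.530% of protein-coding gene windows.

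Hey1, a second repressor gene of the HES and HEY kind (chr3:8663359-8667038), had 1 DLX3 peak in its window, at 61.74 (chr3:8666972-8667920), over one end of the gene. It lay on the single H3K4me3 peak of the window, 4036 bp wide with a score of 1884.91, which also covers part of a predicted gene, LOC115489673. Nrarp, the gene of an ankyrin-repeat inhibitor of Notch signalling (chr2:25180758-25183339, plus strand), had no DLX3 peak at its start but a run of 5 upstream of it over 10.2 kb. Going away from the start they were centred 2904, 5312, 8145, 9571 and 12270 bp upstream and scored 58.65, 61.48, 74.6, 108.18 and 314.14. The scores rose with the distance from the start, and the highest (chr2:25167936-25169041) was the outermost. The peaks at 58.65, 74.6 and 314.14 lay on H3K4me3 and those at 61.48 and 108.18 did not. Nrarp had the most H3K4me3 peaks in its window, 9, of which 5 were nearest to it.

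H3K4me3 at the starts was broad. The peak at the start had a median width of 4940 bp over the 10 genes and 2387 bp over all 13207 protein-coding genes with the mark there. Notch1 (8450 bp), Nrarp (8431 bp) and Jag1 (7970 bp) were the widest, and as wide a peak stood at 0.424%, 0.462% and 0.621% of marked genes. Notch3, at 2473 bp, lay near the middle, with 46.2% of marked genes as wide. The score at the start was 3100 at Notch1, Jag1, Rbpj, Hes1 and Nrarp, and 8.05% of marked genes had 3100 or more. Since 766 H3K4me3 peaks share exactly this value, it gives no order among the 5 genes. The remaining scores were 2740.46 at Dll1, 2370.86 at Notch2, 1884.91 at Hey1, 1326.18 at Notch3 and 1073.34 at Jag2. At Notch1, Jag1, Notch2 and Jag2 the centre of this peak lay 2948, 2275, 1623 and 1059 bp inside the gene, so it extended farther into the gene than before it.

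**Figure D4:**
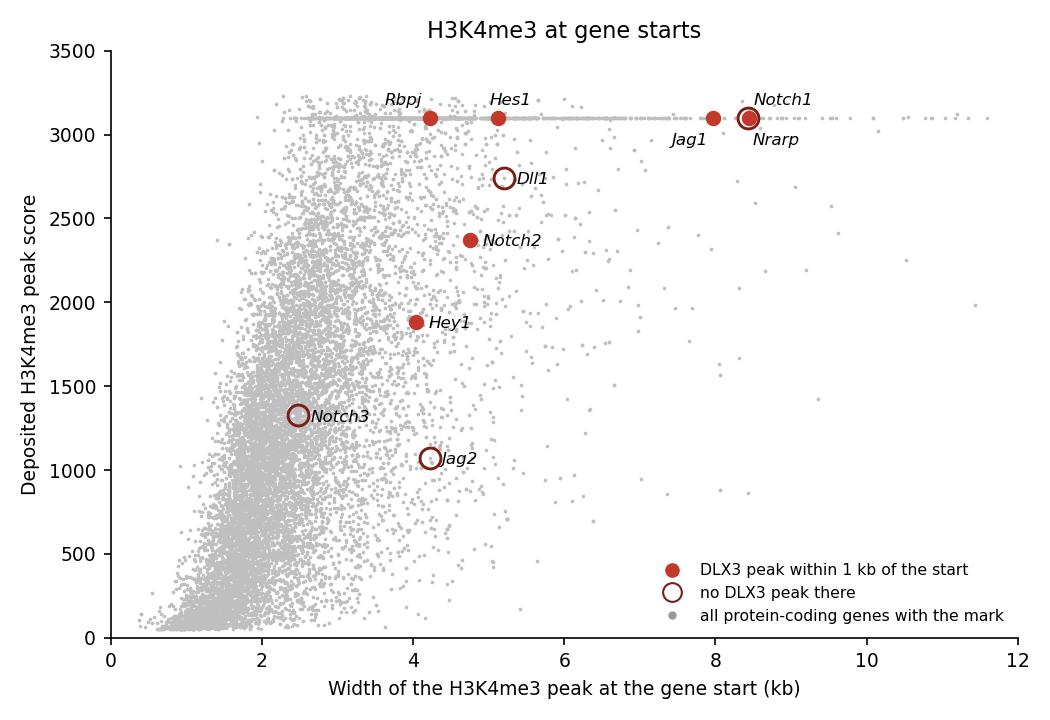
Width in kb (horizontal axis) and deposited score (vertical axis) of the H3K4me3 peak at the start of each of the 10 genes (large symbols) and of all protein-coding genes with the mark there (grey; 9 genes wider than 12 kb are not drawn). Filled symbols have a DLX3 peak within 1 kb of the start; Notch1, Nrarp and Jag1 stand at the right, and Notch1 and Nrarp nearly coincide.

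DLX3 peaks with and without H3K4me3 were equally many, 28 of 56 (50%, Wilson interval 37.3 to 62.7), where 42.1% of all DLX3 peaks had the mark. Of the 10 genes, 8 had at least 1 peak without it, all but Notch3 and Hey1, and 38.5% of protein-coding genes did. The 38.5% is over all genes, and 36.2% of these had no DLX3 peak in the window, while all 10 genes here had one. Distances were taken to the start of the Notch gene itself (the nearer span end at Hes1 and Hey1), not to the starts of its neighbours. With H3K4me3, 17 peaks were centred within 5 kb of it and 7 more than 20 kb away, with a median distance of 3.2 kb, and all 7 distant ones were nearest to another gene. Without H3K4me3, 1 was centred within 5 kb, the Notch1 peak of 286.27, and 22 more than 20 kb away, with a median of 40.8 kb, and 10 of these 22 were nearest to another gene. The median score was 97.6 with H3K4me3 and 81.7 without, close to the medians of all such peaks, 93.8 and 76.8. In the top 20% of the DLX3 list by score stood 18 of the 56 (32.1%, interval 21.4 to 45.2), against 20% by construction. The intervals take peaks as independent, which peaks close together in 1 window need not be, so they are no test against these shares. All 10 windows but that of Hey1 held at least 1 of the 18. The share of protein-coding genes with such a peak in the window was 27.3%, again over genes with and without any DLX3 peak. Peaks of the high-scoring class without H3K4me3 lay in the windows of Jag1 (406.81), Notch2 (299.79), Notch1 (286.27 and 211.28), Dll1 (192.65) and Jag2 (154.52). The one in the Jag2 window was nearest to Gpr132, and the one in the Dll1 window was centred 49403 bp downstream. In the Jag2 and Dll1 windows these were the only peaks in the top 20%.

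The rest of the pathway was read from 47 further genes. Of these, 43 had H3K4me3 within 1 kb of a start and 20 had DLX3 there, all 20 of them among the 43. These stand beside 60.3% of all protein-coding genes for H3K4me3, 27.7% for DLX3, and 45.1% for DLX3 among the genes with H3K4me3 at the start, so the DLX3 count was near the share of marked genes. The median number of DLX3 peaks in their windows was 3. Within 5 kb of a span end 29 of 47 had a DLX3 peak, against 8 of the 10 genes above and 35.8% of all protein-coding genes. The 35.8% was not limited to genes with H3K4me3 at the start. Rbpj was not among the 8. Its DLX3 peaks of 210.0 and 316.52 lay by starts inside the span, away from both ends. The highest peak was at Spen, a corepressor gene of the RBPJ complex (702.27; chr4:141538263-141539193), above any at the 10 genes. Next came 2 genes of the proteases that cut the receptor, Aph1b (249.28), a γ-secretase subunit, and Adam10 (240.14), the sheddase, then the coactivator genes Crebbp (206.65) and Maml3 (204.42) and the sheddase gene Adam17 (171.0). All 6 of these peaks lay on H3K4me3.

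By function, DLX3 stood at the start of 4 of 9 protease genes, 4 of 8 nuclear cofactor genes and 5 of 8 genes of inhibition and turnover (Numb, Numbl, Itch, Fbxw7 and Dtx2). All genes of these 3 groups had H3K4me3 at the start, and 45.1% of protein-coding genes with H3K4me3 there had DLX3 too. DLX3 was at all 4 ubiquitin ligase genes that act on the ligands (Mib1, Mib2, Neurl1a and Neurl1b), a group too small to set against that share, with highest scores of 60.0 to 93.96. Of 5 glycosyltransferase genes, only Pofut1, the fucosyltransferase that modifies the receptors, had it at the start, and of 7 further HES and HEY genes Hey2 and Heyl did. Of the 6 remaining receptor and ligand genes (Notch4, Dll3, Dll4, Dlk1, Dlk2 and Dner) none had DLX3 at a start and 3 had H3K4me3 there. Dll3, Dner and Mfng had neither H3K4me3 at the start nor DLX3 within 5 kb of an end.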

How the data were processed

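ChIP-seq libraries of 3 antibodies were described; peaks of the DLX3 and H3K4me3 libraries were analysed. Bowtie 1.1.2, MACS 1.4.2, HOMER and build mm10 are named by the submitters' processing notes, and their roles and settings are not stated there. The authors deposited 1 list per library with position, name and score, as MACS writes them; the names of the lists mention IgG, and its use as the control is not stated. Read depth is unknown.

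Positions were converted to count from 1. Gene spans came from a RefSeq table of GRCm38.p6, and starts, strands and promoter sequence from a RefSeq promoter table of the same build. A peak counted when 1 base or more touched the window. Exons and introns were not told apart. The interval counting was tested on simulated data. With 1 library per antibody no test was run, and Wilson intervals (95%) cover counting error only and take peaks as independent. All 10 genes were named, with their highest DLX3 peaks and the H3K4me3 peak at the start, and of the 47 further pathway genes the 6 with the highest DLX3 peak within 5 kb of an end and those with neither mark; other genes are named with their group. The genes and lists were chosen with earlier results of these data known. Alternatives were other flanks, score limits, overlap rules and motif letters. Python 3.11.15, pandas 2.3.3 and scipy 1.17.1 were used.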

Additional observations from a re-analysis of the deposited data

How the results depend on the processing

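With flanks of 5 and 20 kb in place of 50 kb the 10 genes had 28 and 37 DLX3 peaks instead of 56, and Jag2 had none; peaks at or above the list median gave 30 and the top 20% by score 18, with none at Hey1 in either. H3K4me3 peaks numbered 15 with a 5 kb flank, 50 with 100 kb, 20 when the Notch gene had to be nearest, 17 at or above the median and 8 in the top 20%, instead of 33. DLX3 at the start rose from 6 genes to 9, all but Jag2, when peaks within 5 kb of the start counted. It fell to 4 at or above the median, without Notch1 and Hey1, and to 3 (Jag1, Rbpj and Hes1) in the top 20%. H3K4me3 at the start fell from 10 genes to 6 when the peak centre had to lie within 1 kb, without Notch1, Notch2, Jag1 and Jag2. Shares of all protein-coding genes were counted only for any base within 1 kb, so these altered counts have no share beside them. The share of DLX3 peaks on H3K4me3 was 67.9% with a 5 kb flank and 66.7% in the top 20%, instead of 50%. With the Notch gene nearest, chosen after the data were seen, it was 53.8%. The share over all DLX3 peaks, 42.1%, was counted without these limits and is not their counterpart. TAATTG and TAATTA were found in 0 genes each, TAATT in 1, and TGGGAA in 1 gene where GTGGGAA was in 0. With 1 library per antibody no replicate could be left out and no paired analysis was possible because no group has a second sample.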

Other observations

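The windows held DLX3 peaks that were nearer to other genes, 17 in all, of which 7 (41.2%) lay on H3K4me3. The highest was at Sec16a, a gene of protein export from the endoplasmic reticulum beside Notch1, at 165.55 (chr2:26444823-26446167). Next was a peak without H3K4me3 on the Gpr132 side of Jag2, at 154.52 (chr12:112876034-112876972), and a neighbouring peak there of 93.19 did overlap H3K4me3. Near Nrarp a peak of 97.94 was nearest to Slc34a3 and one of 67.2 to Fam166a and Tubb4b.

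DLX3 peaks stood close together at some of the genes. By a rule set after the values were seen, a run was 3 or more peaks with gaps of at most 5 kb. Of the 56 peaks, 16 (28.6%) were in such runs, and of all DLX3 peaks 12.1% were. They belonged to 4 runs: 5 peaks at Notch1, 4 at Hes1, 5 at Nrarp, and 2 of a run of 4 peaks on the Egfl7 side of Notch1 that extended beyond the window.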
